A study of Caenorhabditis elegans with 4 samples.

Results

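The MATH and BATH domain genes of Caenorhabditis elegans were taken as the rows of the gene count tables whose gene name is math or bath followed by a number. This rule found 93 of 46881 listed genes, 49 named math and 44 named bath. The study compared wild-type Bristol N2 hermaphrodites fed Bacillus subtilis natto MI-OMU01 with worms of the same strain fed Escherichia coli OP50, the usual laboratory food. Worms were 3 days old when placed on the bacterial lawns and stayed there for 1 day, and poly(A) RNA of about 200 worms per group was sequenced. Each diet had 2 libraries. The labels do not give separate cultures for them, and the spread on which the p-values rest may therefore be technical.

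The MATH domain is a protein interaction fold first described in meprins and TRAF proteins. BATH proteins carry it together with a BTB domain, and proteins of this kind act as substrate adaptors of ubiquitin ligases built on cullin CUL-3: the BTB domain binds the cullin and the MATH domain binds the protein to be ubiquitylated. In C. elegans the family has expanded into large tandem arrays of similar genes, and most of its members have no assigned function.

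Worms on MI-OMU01 held more transcript of 16 of 63 tested MATH and BATH genes and less of 1. Over all genes tested, 14.6% were higher and 15.2% lower. Of the 16, math-28 and bath-33 had enough reads for the test only on MI-OMU01. The largest change was that of math-38, which was 20.6-fold higher, followed by math-34 at 9.86-fold. Next came math-28, math-14, math-44 and bath-33, each more than 3-fold higher, and bath-47 and bath-26, each more than 2-fold higher. The abundant gene math-41 was the only member past the threshold in the other direction, at 1.53-fold lower.

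The MI-OMU01 libraries held 17601286 and 24381952 counted reads, and the OP50 libraries held 16962082 and 17327035. Levels are given as CPM, the reads of a gene relative to the library total after scaling by the trimmed mean of M-values (TMM). Fold changes and adjusted p-values come from edgeR's quasi-likelihood test over all genes tested, adjusted by the method of Benjamini and Hochberg, and called when below 0.05. A low-count filter kept 14967 genes, of which 29.7% passed the threshold, 14.6% higher and 15.2% lower on MI-OMU01. It kept 63 of the 93 members, 24 math and 39 bath genes. Members bath-33 and math-28 passed the filter through the MI-OMU01 libraries alone and so could hardly have come out lower. Among the other 61 tested members 14 were higher and 1 lower. Among all genes with at least 1 library of each diet past the level of the filter 13.5% were higher and 15.1% lower. Some of the 61, such as bath-20 and bath-14, reached that level in only 1 OP50 library. When libraries were scaled by total counts alone, 65.3% of all calls were higher, against 49.0% with TMM, and the median log2 fold change over the tested genes was 0.16, against 0.03.

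Transcript of math-38 (WBGene00020326, chromosome II, 1577471 to 1579986 on WBcel235) stood at 44.4 and 45.3 CPM in the MI-OMU01 libraries and at 2.58 and 1.77 CPM in the OP50 libraries. These values rest on 819 and 1153 reads, against 42 and 29 reads, and the groups lay far apart. Its log2 fold change was 4.37 (SE 0.19, adjusted p = 1.97e-12). Per kilobase of exon its level was 33.4 ± 0.480 CPM on MI-OMU01 and 1.62 ± 0.426 CPM on OP50 (SD, n = 2 each), which placed it 7th of the 93 members on MI-OMU01 and 46th on OP50.

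For math-34 (WBGene00019699, chromosome II, 1028987 to 1033664) the level was 10.6 and 12.4 CPM in the MI-OMU01 libraries and 1.04 and 1.28 CPM in the OP50 libraries. Its log2 fold change was 3.30 (SE 0.26, adjusted p = 8.67e-09). Leaving out any 1 library kept the log2 fold change of math-38 between 4.12 and 4.62 and that of math-34 between 3.12 and 3.46.

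**Figure D1:**
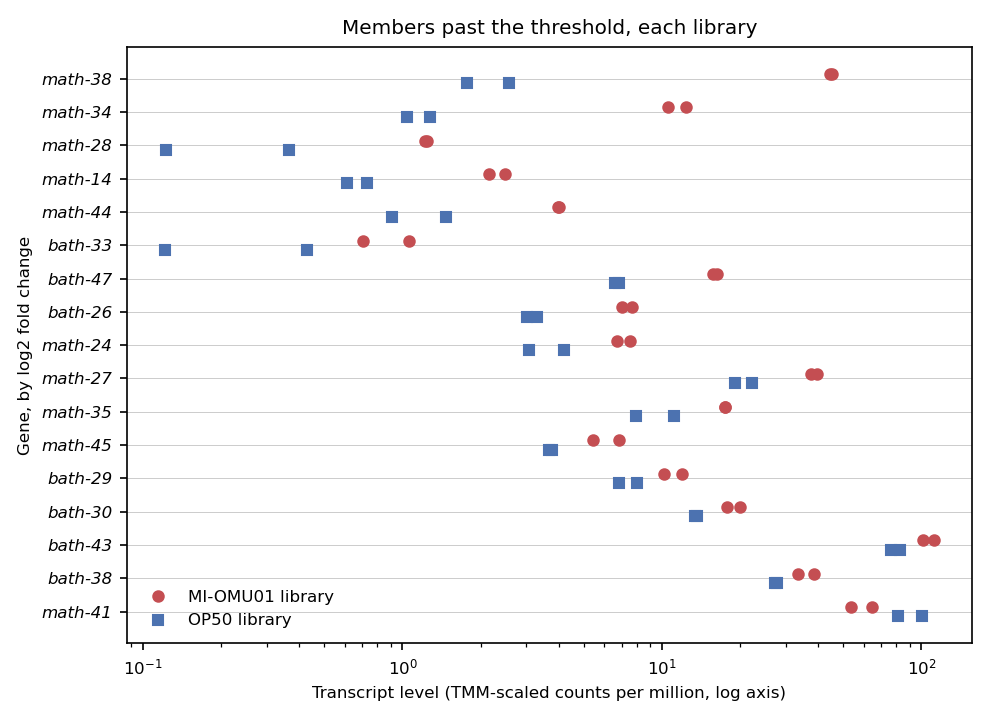
Level of the 17 members past the threshold in each library, in TMM-scaled CPM on a log axis, with MI-OMU01 libraries as circles and OP50 libraries as squares, ordered by log2 fold change. The groups do not overlap in any row, math-38 stands apart at 44.4 and 45.3 CPM against 2.58 and 1.77 CPM, and math-41 is the only gene with MI-OMU01 below OP50.

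Other math genes rose from low levels. Gene math-44 had 3.96 and 4.01 CPM on MI-OMU01, against 1.47 and 0.913 CPM on OP50, and its log2 fold change was 1.74 (SE 0.32, adjusted p = 0.000302 in edgeR). The level of math-14 was 2.49 and 2.16 CPM on MI-OMU01 and 0.613 and 0.731 CPM on OP50, with a log2 fold change of 1.78 (SE 0.39, adjusted p = 0.00168). Both genes kept their call in all 12 alternative analyses, as did math-38, math-34, bath-47, bath-26 and math-27.

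The level of math-28 was 1.25 and 1.22 CPM on MI-OMU01, against 0.123 and 0.365 CPM on OP50, where these values rest on 2 and 6 reads. Its log2 fold change of 2.30 (SE 0.57, adjusted p = 0.00399) was 1.70 without OP50 replicate 1, where the adjusted p was 0.0618, and 3.26 at most when 1 library was left out. Transcripts of math-24 stood at 6.72 and 7.54 CPM on MI-OMU01 and at 3.07 and 4.202 CPM on OP50 (log2 fold change 0.97, SE 0.24, adjusted p = 0.00355). For math-45 the values were 5.42 and 6.84 CPM, against 3.68 and 3.78 CPM on OP50 (log2 fold change 0.72, SE 0.24, adjusted p = 0.0253), and its adjusted p was 0.303 when MI-OMU01 replicate 2 was left out, 0.0764 when OP50 replicate 1 was, and 0.104 with DESeq2. Each of these 3 genes had both MI-OMU01 libraries above both OP50 libraries.

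A pair of members classed as pseudogenes in the Ensembl annotation, math-27 and math-35, also rose. Their OP50 levels were 6.97 and 7.01 CPM per kilobase of exon, against a median of 11.1 over all tested genes. Reads of math-27 amounted to 39.5 and 37.5 CPM on MI-OMU01, against 19.1 and 22.2 CPM on OP50 (log2 fold change 0.90, SE 0.14, adjusted p = 4.33e-05). In the deposited tables exons of math-27 share 227 bases with those of math-3, which had 17.2 and 18.5 CPM on MI-OMU01 and 11.7 and 17.8 CPM on OP50 and did not pass the threshold (adjusted p = 0.284), so reads of the pair may have been divided or dropped. The other, math-35, had 17.5 CPM in both MI-OMU01 libraries and 7.98 and 11.1 CPM in the OP50 libraries (log2 fold change 0.87, SE 0.18, adjusted p = 0.000929). Of the 19 members classed as pseudogenes 7 were tested. These 2 were higher and 0 were lower, against 14.6% and 15.2% of all tested genes.

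The fall of math-41 (WBGene00020360, chromosome II, 1824629 to 1830195) was seen at high counts. It had 53.6 and 64.5 CPM on MI-OMU01, against 81.2 and 100.1 CPM on OP50, and its log2 fold change was -0.62 (SE 0.13, adjusted p = 0.000938). Leaving out 1 library moved this value between -0.80 and -0.46. Further members lay lower without passing the threshold: math-15 had 0.650 and 0.314 CPM on MI-OMU01 and 0.859 and 1.40 CPM on OP50, 8 to 23 reads per library (log2 fold change -1.28, adjusted p = 0.0697). For this gene the adjusted p was 0.504 when MI-OMU01 replicate 2 was left out and 0.0497 when OP50 replicate 1 was.

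Among the BATH genes 7 of 39 tested members rose (17.9%) and none fell. The share that rose was near the 14.6% of all tested genes and the 17.0% of other genes weighted to the OP50 levels of all tested members. At an unadjusted p of 0.05 the edgeR counts were 9 higher and 0 lower, against 2921 and 2875 of all 14967 tested genes. DESeq2 and limma-voom likewise called no BATH gene lower. In the MI-OMU01 libraries bath-47 reached 15.7 and 16.3 CPM, against 6.81 and 6.58 CPM on OP50 (log2 fold change 1.26, SE 0.18, adjusted p = 1.44e-05). Transcripts of bath-26 reached 7.70 and 7.03 CPM on MI-OMU01, against 3.01 and 3.29 CPM on OP50 (log2 fold change 1.22, SE 0.23, adjusted p = 0.000408). For both genes the distance between diets was several times the distance between libraries of 1 diet.

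The nearby gene bath-33 had 13 and 27 reads in the MI-OMU01 libraries and 7 and 2 reads in the OP50 libraries. Its log2 fold change of 1.69 (SE 0.61, adjusted p = 0.0428) ran from 1.05 to 2.78 when 1 library was left out. Leaving out MI-OMU01 replicate 1 or 2 gave an adjusted p of 0.0748 or 0.384, and leaving out OP50 replicate 2 gave 0.321. DESeq2 gave 0.222.

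The remaining rises in BATH genes were under 1.5-fold. The level of bath-43 was 101 and 111 CPM on MI-OMU01, against 82.6 and 76.6 CPM on OP50 (log2 fold change 0.42, SE 0.11, adjusted p = 0.00620). This gene carries the name spop-1 in the reference symbol table, after the human CUL3 adaptor SPOP, which like BATH proteins joins a MATH to a BTB domain. Its adjusted p was 0.172 without MI-OMU01 replicate 2.

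Genes bath-29 (1.49-fold, adjusted p = 0.0287), bath-30 (1.39-fold, 0.0252) and bath-38 (1.31-fold, 0.0328) rose as well. The level of bath-30 was 19.9 and 17.9 CPM on MI-OMU01 and 13.7 and 13.4 CPM on OP50. That of bath-29 was 11.98 and 10.2 CPM on MI-OMU01 and 8.04 and 6.82 CPM on OP50. For bath-38 the values were 33.6 and 38.5 CPM on MI-OMU01 and 27.8 and 27.3 CPM on OP50. Groups did not overlap for any of the 3, yet each call depended on single libraries. Leaving out MI-OMU01 replicate 1 gave adjusted p-values of 0.245 for bath-30, 0.251 for bath-29 and 0.0666 for bath-38. Leaving out MI-OMU01 replicate 2 gave 0.0726 for bath-30 and 0.395 for bath-38. Leaving out OP50 replicate 1 gave 0.0512 for bath-30 and 0.0634 for bath-38, and leaving out OP50 replicate 2 gave 0.111 for bath-29. With DESeq2 the adjusted p was 0.0740 for bath-30, 0.0895 for bath-29 and 0.0844 for bath-38, and without a low-count filter it was 0.0557 for bath-38.

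Of the 5 most abundant members only bath-43 passed the threshold. Among other genes over 20 CPM on OP50 10.4% were higher and 22.0% lower. In CPM per kilobase of exon (SD, n = 2 each), bath-42 stood highest, at 97.5 ± 3.16 on MI-OMU01 and 89.6 ± 4.82 on OP50. Next on OP50 came math-33, with 57.3 ± 2.04 on MI-OMU01 and 57.0 ± 5.74 on OP50, and bath-40, with 58.6 ± 0.944 on MI-OMU01 and 50.3 ± 3.55 on OP50. They were followed by bath-43, with 61.5 ± 4.096 on MI-OMU01 and 46.1 ± 2.44 on OP50, and bath-44, with 41.5 ± 1.58 on MI-OMU01 and 44.9 ± 2.696 on OP50. On OP50 the neighbours in this order after bath-42 differed by less than 2 SD, while bath-42 stood clear of them. The 11 members over 10 CPM per kilobase on OP50 contrasted with 40 members under 1. Gene math-33, which codes for the ortholog of the deubiquitylating enzyme USP7 and is known to stabilize the FOXO factor DAF-16, had 247 and 235.14 CPM on MI-OMU01 and 257 and 223 CPM on OP50 (log2 fold change 0.01, SE 0.11, adjusted p = 0.968). The log2 fold change was 0.12 for bath-42 (adjusted p = 0.421), 0.22 for bath-40 (0.137) and -0.11 for bath-44 (0.494). The sign for bath-44 was positive when libraries were scaled by total counts. With that scaling the adjusted p of bath-40 in edgeR was 0.0173, and with the replicate number as a block it was 0.0318. It was 0.309 with DESeq2 and 0.135 with limma-voom.

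The 46 tested members that did not pass the threshold had log2 fold changes from -1.28 to 0.84, and 35 of them lay within 0.5 of 0. Of these 46 genes 18 had both MI-OMU01 libraries above both OP50 libraries, 5 had them below, and in 23 the groups overlapped. Over all tested genes, called ones included, 33.2% lay above, 29.9% lay below and 63.1% did not overlap. Among the 32 bath genes of this kind 26 had a positive log2 fold change and 6 a negative one, and among the 14 math genes the numbers were 10 and 4. The SE of these values ran from 0.10 to 0.55.

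**Figure D2:**
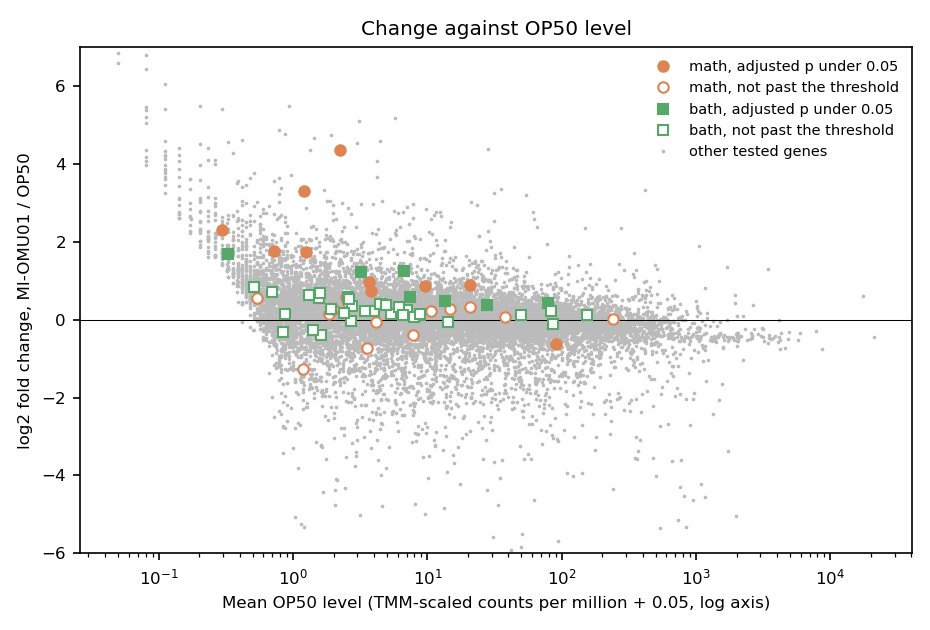
Log2 fold change of MI-OMU01 over OP50 against the mean OP50 level in CPM (log axis, 0.05 added) for tested math genes (circles), tested bath genes (squares) and other tested genes (grey dots; 19 lie outside the axis). Among the members the largest changes belong to math-38 and math-34, whose mean OP50 levels were 2.17 and 1.16 CPM. Of the 11 members over 20 CPM on OP50 4 passed the threshold, 3 higher and math-41 lower. Among other genes at that level 10.4% were higher and 22.0% lower.

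The 30 members that did not pass the filter were 25 math and 5 bath genes. Of these, 5 had no read in any library, 15 had 1 to 9 reads in all, and 10 had 10 or more, with a highest total of 39. A gene without a read could still have been present at up to 3 reads, which equals 0.163 and 0.118 CPM in the MI-OMU01 libraries and 0.184 and 0.183 CPM in the OP50 libraries. For genes without a read, transcript below these levels cannot be told from none at this depth. The genes at 0 throughout were math-2, math-13, math-17, math-25 and math-32, of which math-13 and math-25 are classed as protein-coding. A pair of untested genes was singled out after their values were seen. Gene math-6 had 3 and 8 reads on MI-OMU01, against 1 and 0 on OP50, a ratio of 8.20 with an exact binomial 95% interval of 1.19 to 353. Gene math-23 had 4 and 9 reads on MI-OMU01, against 0 and 2 on OP50, a ratio of 4.84 with an interval of 1.10 to 44.2. These intervals cover counting error only.

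The position of the members along the genome was not used to choose them. On chromosome II lie 79 of the 93 members, and 76 of these lie between 1 and 4 Mb on its left arm. When members less than 50 kb apart were joined, the largest group held 56 members over 392 kb (II, 1763372 to 2155220), and 72 members lay in groups of 3 or more. The length-scaled OP50 level had a median of 1.34 CPM per kilobase in these groups and 2.19 among the 21 members elsewhere. Of the 11 members over 10 CPM per kilobase, 8 were among those 21.

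Members that rose were found in several of these groups. Over all tested genes 14.6% were higher and 15.2% lower. In the group of 5 members that starts with math-38 (II, 1577471 to 1606143), math-38, bath-26, bath-47 and bath-33 rose, while bath-46, which lies between math-38 and bath-26, had 2.82 and 2.36 CPM on MI-OMU01 and 2.64 and 2.62 CPM on OP50 (adjusted p = 0.953). In the group of 56 members 34 were tested, and 6 rose, a share near that of all tested genes, and 1 fell. Those that rose were math-28, math-27, math-14, math-24, math-44 and math-35, all math genes. In the group of 8 BATH genes at 3343710 to 3381403, bath-30 and bath-29 rose and the other 4 tested members did not pass the threshold.

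**Figure D3:**
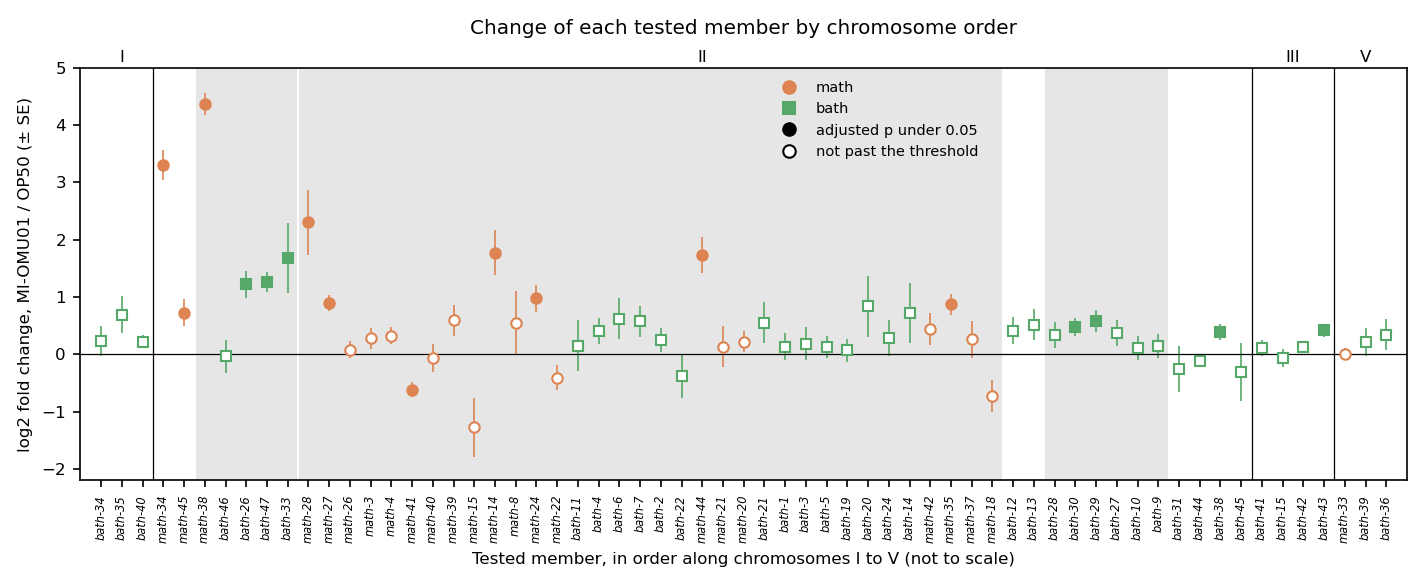
Log2 fold change of MI-OMU01 over OP50 with its SE for the 63 tested members, in their order along chromosomes I to V, with math genes as circles, bath genes as squares, filled symbols past the threshold, and groups of at least 5 tested neighbouring members shaded. Each of the 3 shaded groups holds filled symbols, 4 of 5 members in the group of math-38, 7 of 34 tested members in the group of 56 and 2 of 6 in the group of 8. Over all tested genes 29.7% passed the threshold.

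Genes around the arrays changed too, as did genes elsewhere. Over all tested genes 14.6% were higher and 15.2% lower, with a median log2 fold change of 0.03. For other genes at the OP50 levels of the members these values were 17.0%, 11.6% and a weighted 0.20. Genes around the arrays were not matched on level. Among 427 tested genes that are not members in the 1 to 4 Mb stretch of chromosome II, 20.8% were higher and 7.26% lower, with a median log2 fold change of 0.17. In the same stretch 14 of 50 tested members were higher (28.0%) and 1 was lower, with a median of 0.39. Within the span of the 56-member group 11 of 48 tested other genes were higher and 2 lower, with a median log2 fold change of 0.34. There 6 of 34 tested members were higher and 1 lower, with a median of 0.28, below that of the other genes. The difference between members and their neighbours was not tested.

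Close to math-38, values of the flanking genes are given for their position, and those named were picked after their values were seen. The uncharacterized gene K05F6.10, which lies 1.36 kb from math-38 on the same strand, had 13.1 and 12.5 CPM on MI-OMU01 and 1.53 and 2.31 CPM on OP50 (log2 fold change 2.73, SE 0.24, adjusted p = 3.55e-08). The C-type lectin gene clec-21, 2.89 kb away on the other side, had 0.217 and 0.0786 CPM on MI-OMU01 and 0.798 and 0.731 CPM on OP50 (log2 fold change -2.42, adjusted p = 0.00998). These values rest on 4 and 2 reads, against 13 and 12 reads. The gene clec-21 passed the filter through the OP50 libraries alone and so could hardly have come out higher. The F-box genes fbxb-46 and fbxb-49, which lie within 10 kb, did not pass the threshold (adjusted p = 0.535 and 0.954).

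Set beside other genes of equal OP50 level, the members had more higher and fewer lower calls. Tested genes were divided into 6 classes of mean OP50 level, bounded at 0.5, 1, 2, 5 and 20 CPM. Weighted by the number of members in each class, 17.0% of the other genes were higher and 11.6% lower, which would be 10.7 and 7.29 of 63 genes. The members numbered 16 and 1, and 14 and 1 without math-28 and bath-33, which passed the filter through MI-OMU01 alone. In the class of 2 to 5 CPM 4 of 18 members were higher and 0 lower, against 16.6% and 10.3% of other genes. Among members at 5 to 20 CPM 4 of 15 were higher and 0 lower, against 16.3% and 14.8%. Above 20 CPM 3 of 11 were higher and 1 lower, against 10.4% and 22.0%. Under 0.5 CPM, where few genes pass the filter unless they are higher on MI-OMU01, 2 of 4 members (math-28 and bath-33) and 47.8% of other genes were higher, a class from which nothing is read. At 0.5 to 1 CPM 1 of 4 members was higher and 0 lower, against 14.7% and 2.05% of other genes. At 1 to 2 CPM 2 of 11 members were higher and 0 lower, against 14.9% and 6.47%. With DESeq2 11 of the 63 members were higher, against 11.02% of other genes of equal level. These counts are a description, since members are not replicates and similar copies can share reads.

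**Figure D4:**
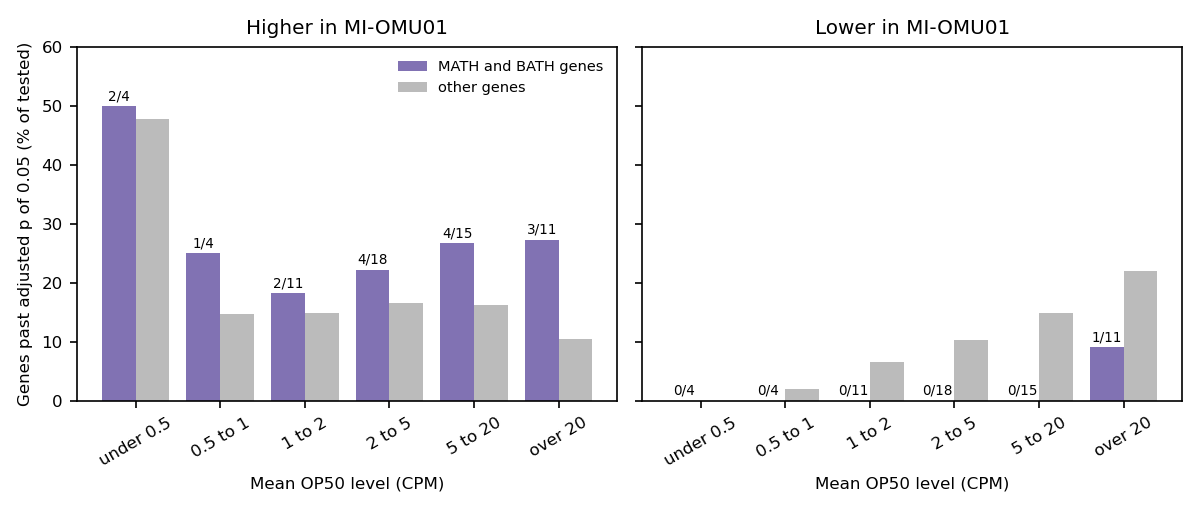
Share of tested genes past an adjusted p of 0.05, higher (left) or lower (right) on MI-OMU01, in 6 classes of mean OP50 level, for the MATH and BATH genes (left bar, with the number of members) and other genes (right bar). The members' bar for higher genes stands above that of other genes in the 5 classes from 0.5 CPM up. Those bars rest on 1 to 4 higher members each, so the order within a class can turn on 1 gene. Of the 63 tested members 1 was lower. The 2 higher members under 0.5 CPM, math-28 and bath-33, passed the filter through MI-OMU01 alone, so nothing is read from that class.

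The median log2 fold change of the tested members was 0.32 (quartiles 0.12 and 0.61), against 0.03 for all tested genes and a weighted 0.20 for class medians at equal OP50 level. Values above 0 were found in 52 of 63 members, in 8006 of all 14967 tested genes and in 59.6% of other genes at equal OP50 level. Both MI-OMU01 libraries lay above both OP50 libraries for 34 members and below for 6, against 33.2% and 29.9% of all tested genes. A rise of at least 2-fold was called in 8 members and a fall of that size in none, against 6.45% and 6.34% of tested genes. The 8 include math-28 and bath-33, which passed the filter through MI-OMU01 alone and also count in the 52 and the 34. Without them the median of the other 61 tested members was 0.28. By name, 9 of 24 tested math genes were higher and 1 lower (median log2 fold change 0.38), and 7 of 39 bath genes were higher (median 0.28). A difference between math and bath genes was not tested.

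Summed over all members, the level was 1277 and 1281 CPM in the MI-OMU01 libraries and 1124 and 1090 CPM in the OP50 libraries, a ratio of 1.16. Without math-38 and math-34 the sums were 1223 and 1224 CPM, against 1120.1 and 1087 CPM, a ratio of 1.11. The spread between libraries of 1 diet was smaller than the distance between diets in both sums.

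Genes of the ligase that BATH proteins serve mostly did not pass the threshold, and nor did most tested genes. Neddylation is the attachment of the ubiquitin-like NED-8 that activates cullins. Of 15 genes of the CUL-3 ligase and of neddylation none was higher and 1 was lower, against 14.6% and 15.2% of all tested genes. At an unadjusted p of 0.05 in edgeR these numbers were 0 and 2, against 2921 and 2875 of all 14967 tested genes. In this list 1 gene was higher when libraries were scaled by total counts. The cullin gene cul-3 had 157 and 145 CPM on MI-OMU01 and 163 and 139.7 CPM on OP50 (log2 fold change -0.01, SE 0.11, adjusted p = 0.976), with a sign that changed in 4 of 12 alternatives. The gene that fell was cif-1, which codes for a subunit shared by the COP9 signalosome and the translation factor eIF3, with 92.4 and 92.1 CPM on MI-OMU01 and 141 and 132 CPM on OP50 (log2 fold change -0.57, adjusted p = 0.000292). The lower genes of this list numbered 3 when OP50 replicate 2 was left out.

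Among 25 tested genes of other BTB proteins 6 were higher (24.0%, against 14.6% of all tested genes) and none lower (against 15.2%). At an unadjusted p of 0.05 in edgeR the numbers were 7 and 0, against 2921 and 2875 of all 14967 tested genes. Genes btb-21, btb-9 and btb-17 rose by 1.90, 1.67 and 1.24 on the log2 scale (adjusted p = 0.000310, 0.00245 and 0.00315). Gene mel-26 carries no math or bath name but codes for a MATH and BTB protein, the CUL-3 adaptor that removes the katanin subunit MEI-1 after meiosis. It had 90.2 and 89.9 CPM on MI-OMU01 and 88.8 and 81.0 CPM on OP50 (log2 fold change 0.09, SE 0.11, adjusted p = 0.613). None of mei-1, mei-2, ppfr-1 and pph-4.1, which encode its targets and partners, passed an adjusted or an unadjusted p of 0.05 in edgeR, and none was called by DESeq2.

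Skp1-related proteins link F-box adaptors to cullin CUL-1. Of 25 tested genes of these proteins and of other cullins 4 were higher, a share near the 14.6% of all tested genes. None was lower, against 15.2%. At an unadjusted p of 0.05 in edgeR 7 were higher and 0 lower, against 2921 and 2875 of all 14967 tested genes. The largest rise was that of skr-5, with 1.84 and 2.20 CPM on MI-OMU01 and 0.613 and 0.548 CPM on OP50 (log2 fold change 1.80, SE 0.41, adjusted p = 0.00230). Genes skr-4 and skr-19 rose 1.79-fold and 1.53-fold (adjusted p = 0.00843 and 0.00194), and the adjusted p of skr-4 was 0.117 without MI-OMU01 replicate 1. Scaled by total counts alone, 7 genes of this list were higher.

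Whole worms were sequenced, so fewer cells of a type and less RNA per cell cannot be told apart. Some tissue markers differed between diets, and over all tested genes 14.6% were higher and 15.2% lower. Of 5 tested embryo markers 3 were lower and none higher, with summed levels of 6.34 and 4.68 CPM on MI-OMU01 and 11.7 and 11.9 CPM on OP50. Of 4 tested epidermal markers 3 were lower (296 and 253 CPM, against 710.3 and 792 CPM on OP50), as were 3 of 4 body wall muscle markers (5215 and 6161 CPM, against 6767 and 7948 CPM on OP50). Of 4 pharynx markers 2 were higher (3376 and 3845 CPM, against 2527 and 3207 CPM on OP50), and of 5 intestine markers 2 were higher and 1 lower (1492 and 1664 CPM, against 1751 and 1834 CPM on OP50). In the embryo, epidermal and body wall muscle sets 1 tested marker each had a positive log2 fold change. The intestine sum was lower although 4 of its 5 markers had a positive log2 fold change, since a sum weighs abundant genes most. None of 8 oocyte, 28 tested sperm and 5 neuron markers passed the threshold. The sperm gene msp-37 was the only marker at 0 in every library. The part of these differences in the changes of MATH and BATH genes was not tested.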

How the data were processed

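The deposited files hold raw read counts per gene, 1 file per library, made by the authors from stranded poly(A) libraries per the labels' protocols. The submitters' processing notes name featureCounts 1.6.4, STAR 2.7.2b, cutadapt 2.7, Trimmomatic 0.39 and Trim Galore 0.6.5, and the builds WBcel235 and ce11. Strand setting and treatment of multi-mapping reads: not given in the sources used here. Thus values of similar copies and overlapping genes are uncertain (14 members share exon bases with another gene). Coordinates are those of the files, and gene types are those of Ensembl release 115 for WBcel235, where all 93 members were found.

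Groups came from the sample titles. Libraries of 1 diet differed beyond sampling noise (chi-square per gene 7.44 on MI-OMU01 and 8.44 on OP50). Genes were filtered with filterByExpr (minimum count 10, minimum total 15) and tested with edgeR 4.0.16 in R 4.3.3 (TMM factors 1.05, 1.04, 0.962 and 0.948 in the order MI-OMU01, OP50; robust quasi-likelihood fit; group as the only term), checked on simulated counts. SE is the log2 fold change over the square root of F. Alternatives used DESeq2 1.42.0 and limma 3.58.1. The members and lists were chosen with earlier results of these data known. Named were all members past the threshold (up to 30), the 5 most abundant, those with a log2 fold change of at least 1 in size and groups that do not overlap, math-33, mel-26, cul-3 and up to 3 genes per direction and list. No sequence is shown.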

Additional observations from a re-analysis of the deposited data

How the results depend on the processing

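Alternatives were other scalings, tests and filters, a minimum fold of 1.5, a block for the replicate number and the omission of single libraries (12 in all); restriction to protein-coding members or to members sharing no exon bases was chosen after seeing the data and left 14 and 13 higher and 1 lower. Of 262 pairs of a named member and an alternative, 221 kept direction and side of the threshold, 30 lost and 5 gained the call, and 6 changed sign, none of these a called gene. Against a fold of 1.5, 8 members were higher and 0 lower, 0 genes of the CUL-3 list lower and 1 of the other cullin and Skp1-related list higher. With total counts as library sizes the members' median was 0.46, 1 CUL-3 gene and 7 other cullin and Skp1-related genes were higher, and log2 fold changes turned to 0.0198 for bath-44 and 0.13 for cul-3. Without a filter 10.5% of other genes of equal level were higher, 2 CUL-3 genes lower and math-33 stood at -0.0301; with DESeq2 11.02% of other genes were higher. For math-33 DESeq2 and its size factors gave -0.0108, and for cul-3 the 1 CPM filter gave 0.0021. With 1 library left out, so that 1 arm held a single library assumed to vary like the other arm, members higher numbered 11 to 17 and lower 1 to 2 (2 without OP50 replicate 1), and the median ran from 0.25 (without MI-OMU01 replicate 1) to 0.36. Other genes of equal level were 9.63% (without MI-OMU01 replicate 2) to 16.1% higher and 7.55% (without MI-OMU01 replicate 1) to 12.05% lower, CUL-3 genes 1 to 3 lower, and other cullin and Skp1-related genes 3 to 5 higher and 0 to 1 lower. The log2 fold change of math-33 then ran from -0.0914 to 0.0758 and that of cul-3 from -0.114 to 0.0720. The causes were not tested.

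With the replicate number as a block, 18 members were higher and 3 lower (math-15 and math-18 added), with 3 CUL-3 genes lower and 7 other cullin and Skp1-related genes higher. Same-numbered libraries deviated together only loosely (correlation 0.211 across genes, 2 pairs), and no label says that a number pairs them. Summing of near-identical members was not run, because protein sequences were not used here. Depth limits the 30 untested members and low-count tested members such as math-28, bath-33 and math-15.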
